A study of Rattus norvegicus with 2 samples.

Results

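The genes described here are 39 of 40 genes listed for the unfolded protein response and the integrated stress response, out of 18489 genes named on the array. They were matched by the exact gene symbol in the deposited annotated table, and the remaining gene, Sesn2, is not analysed here. The list itself was chosen with earlier results of these data known. RNA came from cultured skeletal muscle stem cells, also called muscle-derived stem cells or MDSC, of male rats of the strain Zucker obese fa/fa, which lack a working leptin receptor. One sample is labelled early diabetes and the other late diabetes, each measured on 1 Affymetrix Rat Gene 1.0 ST array, and the same fa/fa genotype and sex apply to both. Culture was on plastic, with 20% serum and with glucose at 5.6 mM or 22 mM, and the labels do not say which of these glucose levels belongs to which array. RNA was extracted from individual wells. Not given in the sources used here are the ages of the rats and the number of rats or wells that each array stands for.

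Proteins that enter the secretory pathway fold in the endoplasmic reticulum (ER), and unfolded protein there is sensed by the kinases PERK and IRE1 and by the membrane-bound factor ATF6. IRE1 splices the mRNA of Xbp1, and spliced Xbp1 and cleaved ATF6 switch on chaperones, folding enzymes and the machinery of ER-associated degradation, which takes misfolded protein to the proteasome. PERK acts differently, by phosphorylating the initiation factor eIF2, as does the amino acid sensor GCN2. General translation then drops, and the mRNA of the transcription factor ATF4 is translated more. ATF4 then drives genes of amino acid synthesis, transport and stress feedback, a program known as the integrated stress response. The members therefore fall into an Atf4 branch of 16 listed genes, and into sensors, chaperones and degradation genes of the ER.

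With 1 array per group, no p-value or spread between cultures can be given for any gene, and every value below describes these 2 arrays. Values are log2 normalized intensities unless an intensity is named, and a difference is always late minus early. A gene was compared if its brighter array reached log2 8.03, the median of all gene values, which kept 9738 genes and 38 of the 39 members found. The median difference of all compared genes was 0.06, and the only repeated measurement, that of 409 genes carrying a pair of bright probe sets, gave an SD of 0.22 between probe sets of one gene. This SD covers probe error alone. The RNA is that of a whole culture, so fewer cells of a type and less RNA per cell cannot be told apart. Of 10 markers of muscle stem cells and myoblasts, 4 were bright enough to compare, and the satellite cell gene Pax7 lay under the floor at 7.35 and 7.38. Also under the floor were Myf5 (7.10 and 6.91), Myod1 (6.85 and 6.65), Myog (6.82 and 6.85), Cdh15 (7.66 and 7.41) and Vcam1 (5.77 and 5.86). Background stood at log2 6.81, so Myod1 and Myog lay close to it and Vcam1 below it. Of 8 mesenchymal or fibroblast markers 7 were compared, of 6 leukocyte markers 2 and of 3 measured endothelial markers 0. The general leukocyte marker Ptprc lay below background (log2 6.81) on both arrays. The compared mesenchymal markers had a median difference of -0.31, with 5 of 7 lower. Of the 4 compared muscle markers, the integrin Itga7 was lower (-1.53) and the other 3 were higher, the intermediate filament gene Des by 0.66 and both Ncam1 and Met by 0.08, with a list median of 0.08. The macrophage gene Cd68, below background in the early array, was at least 2.49-fold higher in the late one, and the monocyte gene Cd14 differed by 0.76. Their part in the values below was not tested.

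The Atf4 branch was lower in the late array and the ER chaperones stood close to where they were in the early array. Of 14 compared Atf4-branch genes, 13 were lower in late than in early diabetes, including 6 that were 1.5-fold lower or more, and the median difference of the branch was -0.48. Of all compared genes, 42.6% were lower in the late array and 6.48% were at least 1.5-fold lower. Because the branch was listed with earlier results of these data known, its excess over these shares is not independent support. Among 14 chaperones and foldases, 5 were lower and 9 higher, none by 1.5-fold in either direction, with a median of 0.06, equal to that of all compared genes. Which chaperones fall on either side of 0 depends on the scale: centring each array on its median takes 0.10 from every difference, so that Hspa5, Pdia4 and Calr, and Xbp1 and Eif2ak4 outside the list, change sign. The chaperone median and that of all compared genes then both stand at -0.04. Within 1.5-fold lay 81.4% of all compared genes, so a count of 14 of 14 is not far from the background. The branch median minus the chaperone median was -0.54. The lowest chaperone stood at -0.34, and 9 of the 14 Atf4-branch genes had a lower difference, while the other 5 lay inside the chaperone range. Without Nupr1, the gene with the largest difference, the branch median was -0.48 again, and 12 of 13 genes were lower. Leaving out Nupr1 was chosen after its value was seen.

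**Figure D1:**
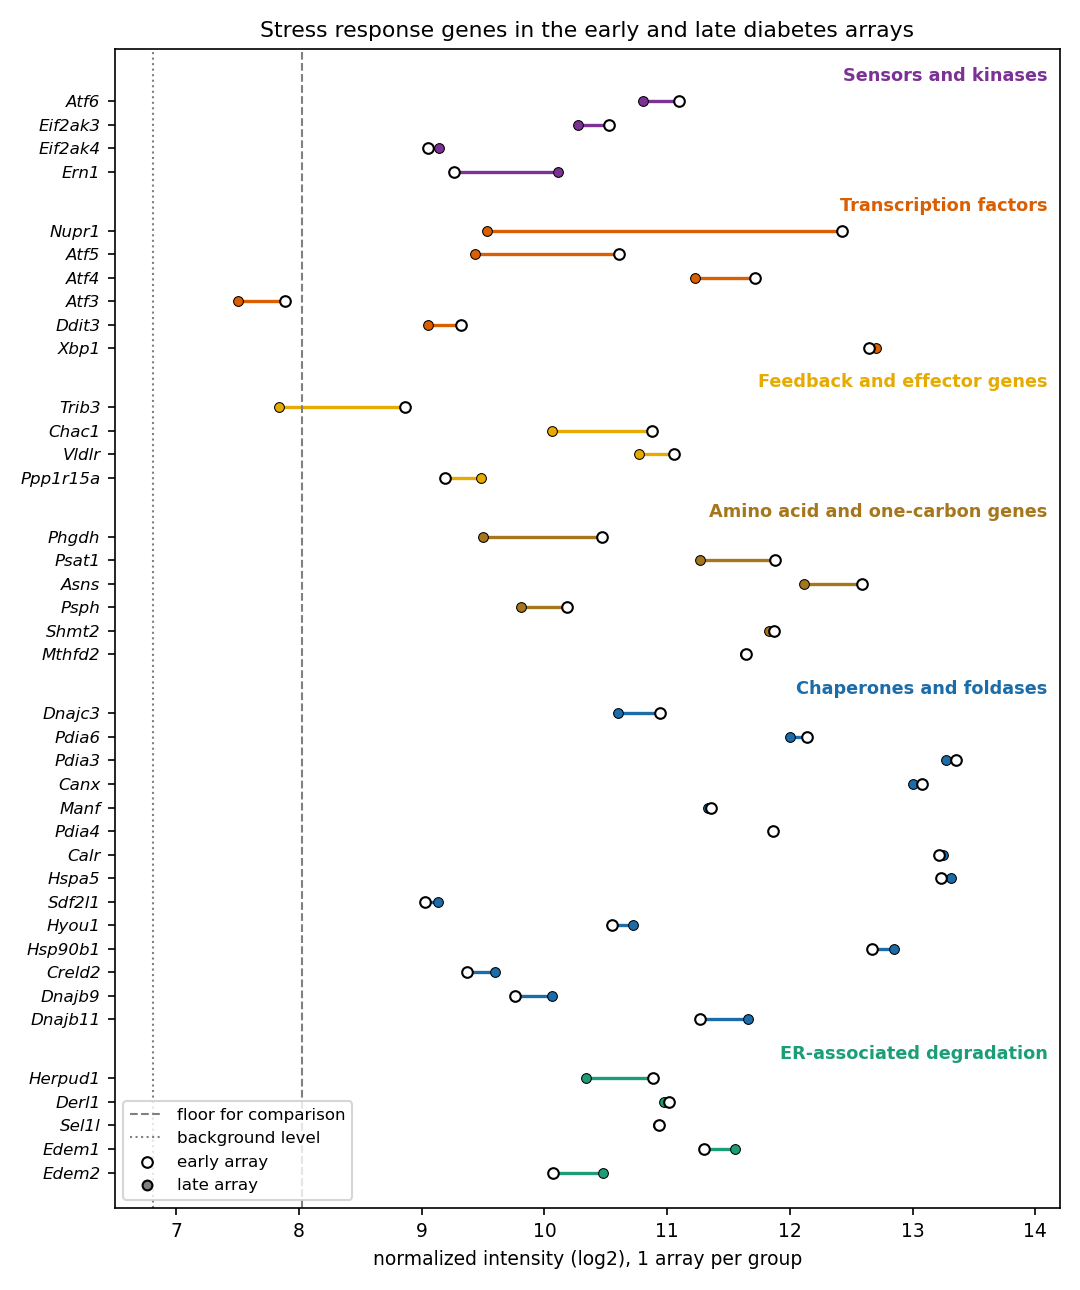
Log2 normalized intensity of each of the 39 members in the early array (open circles) and the late array (filled circles), grouped by role and sorted by difference, with 1 array per group and no error bars. The dashed line is the floor for comparison (8.03) and the dotted line the background level (6.81); the late values of Nupr1, Atf5, Trib3 and Phgdh lie well to the left of the early ones, while chaperone pairs nearly coincide.

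At a 2-fold threshold 3 of the 38 compared members were lower in the late array and 0 higher. The background was 3.11% of all compared genes lower and 5.84% higher. At 1.5-fold 6 members were lower and 1 was higher, beside the 6.48% lower given above and 12.1% higher. All 6 lower members belong to the Atf4 branch. The 24 compared members outside the branch held the 1 higher gene, Ern1, and none that was 1.5-fold lower.

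Atf4 itself, the transcription factor at the head of the branch, had intensities of 3358 (early) and 2403 (late), a difference of -0.48, or 1.40-fold lower. Its mRNA level is only part of its control, since the protein is set mainly by translation, which these arrays do not measure. Nupr1 encodes a small stress-induced nuclear protein and is a known Atf4 target. Its intensity was 5511 in early and 742 in late diabetes. This was the largest difference of any member, 7.43-fold lower (-2.89), and the 23rd lowest of all 9738 compared genes. Atf5, an ATF4-related factor linked to mitochondrial stress, went from 1557 to 693 in intensity and was 2.25-fold lower (-1.17), with 2.38% of the compared genes lower still. The pro-death factor Ddit3, better known as CHOP, was at intensities of 639 and 532, a difference of -0.26 that barely exceeds the SD between probe sets. Atf3, a stress-induced repressor and partner of CHOP, was under the floor on both arrays (7.88 and 7.51) and was not compared. Xbp1, the factor of the IRE1 branch, was at 12.65 and 12.70. The array gives 1 value for Xbp1 and does not tell the spliced from the unspliced form.

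Among feedback and effector genes, Trib3 and Chac1 were lower and Ppp1r15a was the exception. Trib3, a pseudokinase that ATF4 and CHOP induce and that holds both in check, had intensities of 466 and 228. It was 2.04-fold lower (-1.03), so close to the threshold that a pseudocount of 16 takes it below 2-fold (-0.98). Chac1, an enzyme that breaks down glutathione, had intensities of 1882 and 1068 and was 1.76-fold lower (-0.82). Vldlr, a lipoprotein receptor induced under ER stress, was at 11.06 and 10.77, a difference of -0.29. Ppp1r15a encodes GADD34, which brings a phosphatase to eIF2 and so ends the block of translation. It was at intensities of 585 and 716, the single compared Atf4-branch gene that was higher in late diabetes (0.29).

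All 6 genes of amino acid synthesis and one-carbon metabolism were lower in late diabetes, beside 42.6% of all compared genes, with a median of -0.43. In 2 of the 6, Shmt2 and Mthfd2, the difference was smaller than the SD between probe sets (0.22), so their direction is not read. The serine pathway could be read enzyme by enzyme. Phgdh, which takes the first step from glycolysis to serine, had intensities of 1414 and 726 and was 1.95-fold lower (-0.96). Psat1, the second enzyme, had intensities of 3770 and 2463 and was 1.53-fold lower (-0.61). Psph, the phosphatase of the last step, was at 1164 and 898 (-0.37). Each value comes from 1 probe set, and the steps between these 3 enzymes are not much larger than the SD between probe sets, so no order along the pathway is read from them. The mitochondrial enzymes that use serine for one-carbon units stood nearly level: Shmt2, which splits serine to glycine, differed by -0.04. Mthfd2, the next folate enzyme, differed by -0.01 and was the only member measured by 2 probe sets, each of which gave -0.01. Asns, which makes asparagine and is a much-used readout of amino acid shortage, had intensities of 6166 and 4434 and was 1.39-fold lower (-0.48).

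Brightness did not separate the branch from the chaperones completely. The compared genes were divided into 3 equal parts by mean brightness, and the brightest part held 11 of the 14 chaperones and 8 of the 14 Atf4-branch genes. In that part 3 of the 8 Atf4-branch genes and 0 of the 11 chaperones were at least 1.5-fold lower, beside 5.08% of all its genes. In the middle part 2 of 5 Atf4-branch genes and 0 of 2 chaperones were, beside 6.35%. The dimmest part held 1 gene of each kind, Trib3 and Sdf2l1.

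**Figure D2:**
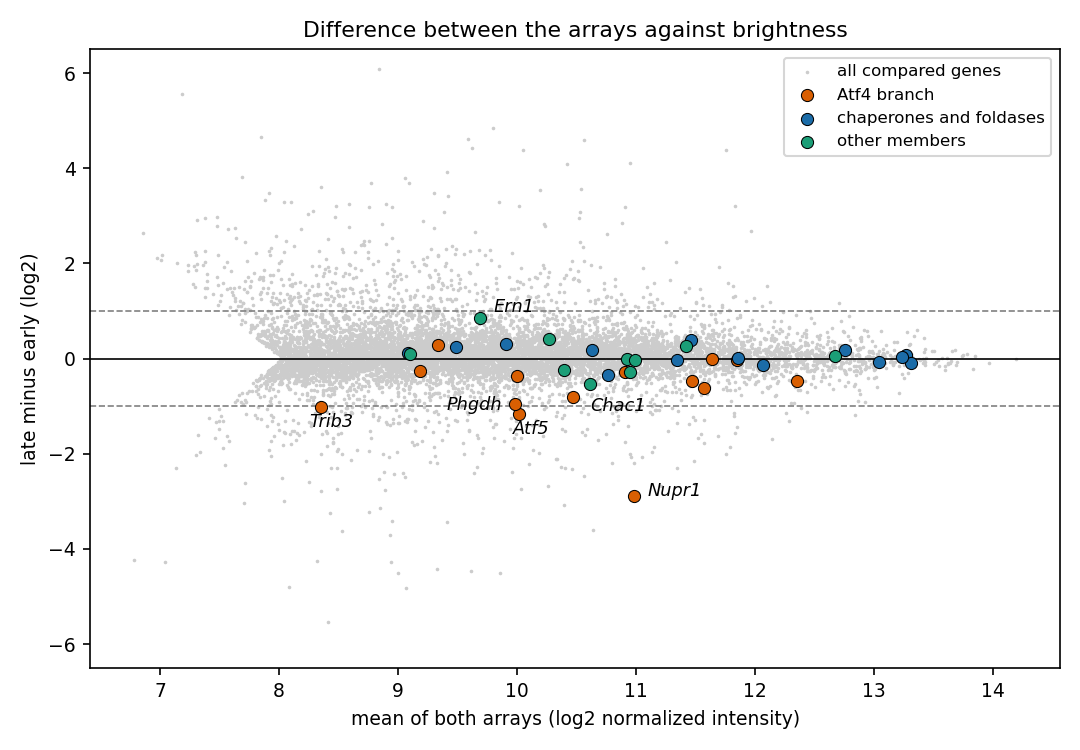
Late minus early difference (log2) against the mean log2 intensity of both arrays for the 9738 compared genes (grey) and the 38 compared members (coloured), with dashed lines at 2-fold. Nupr1 lies at -2.89 among genes of similar brightness that are mostly near 0, Atf5 and Trib3 lie just past the lower line, and the chaperones follow the zero line up to the brightest genes.

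Promoters of some lower Atf4-branch genes are shown for a short composite element. ATF4 and its partners of the C/EBP family bind this element, here called CARE (searched as TGATGNAA on both strands). Sequences are those of RefSeq on the GRCr8 rat assembly, from 250 bases before to 50 after the gene start, and 33 of the 40 listed genes matched. The others are Atf3, Atf6, Derl1, Ern1, Manf, Pdia3 and Pdia6. Among the 27457 rat genes with such a promoter, 4.16% held the element. It was found in 3 of 15 Atf4-branch genes (Chac1, Nupr1 and Trib3) and in 1 further member, the degradation gene Herpud1. Among chaperones it was found in 0 of 11, which at a share of 4.16% over all genes does not set them apart. The matches read as follows in the orientation of the motif, with the matched letters in capitals and 5 flanking bases on each side.
Nupr1: ctgtcTGATGCAAtctgg
Trib3: ccggcTGATGTAAacctg
Chac1: aggagTGATGCAAcggcg
Herpud1: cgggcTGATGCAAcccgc

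The 3 members past 2-fold and Chac1 are printed whole, 5′ to 3′ on the strand of the gene, with CARE in capitals. Chac1 was added after the values were seen, while Phgdh, which was lower and held no match, is not printed. All 4 CARE matches of members lie on the opposite strand, so in the promoters they appear as the reverse complement TTNCATCA. The match of Nupr1 (chr1:190645852-190646151, minus strand) lies at positions -55 to -48 from the gene start. That of Trib3 (chr3:161275484-161275783, minus strand) lies at -21 to -14 and that of Chac1 (chr3:126795881-126796180, plus strand) at -167 to -160. The window of Atf5 (chr1:104434746-104435045, minus strand) held no match to any of the motifs searched. Sequence outside the windows was not searched, and whether this window covers the Atf5 promoter used in these cells was not tested.
Nupr1: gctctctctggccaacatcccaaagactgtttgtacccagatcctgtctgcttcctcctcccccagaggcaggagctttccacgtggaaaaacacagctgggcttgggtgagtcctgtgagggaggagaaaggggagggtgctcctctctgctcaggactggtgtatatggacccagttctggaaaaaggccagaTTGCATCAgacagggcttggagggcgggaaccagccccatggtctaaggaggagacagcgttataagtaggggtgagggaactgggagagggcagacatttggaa
Trib3: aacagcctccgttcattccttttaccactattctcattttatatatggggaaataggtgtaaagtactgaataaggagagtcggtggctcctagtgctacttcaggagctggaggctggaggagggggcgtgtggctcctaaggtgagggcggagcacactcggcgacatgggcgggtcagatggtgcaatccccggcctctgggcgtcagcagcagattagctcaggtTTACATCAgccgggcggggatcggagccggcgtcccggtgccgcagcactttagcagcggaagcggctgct
Atf5: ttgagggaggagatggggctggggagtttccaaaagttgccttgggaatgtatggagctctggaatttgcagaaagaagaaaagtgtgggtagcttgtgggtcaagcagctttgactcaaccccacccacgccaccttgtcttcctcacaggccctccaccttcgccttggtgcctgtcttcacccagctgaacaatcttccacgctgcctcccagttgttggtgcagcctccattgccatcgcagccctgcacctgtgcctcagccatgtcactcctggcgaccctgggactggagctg
Chac1: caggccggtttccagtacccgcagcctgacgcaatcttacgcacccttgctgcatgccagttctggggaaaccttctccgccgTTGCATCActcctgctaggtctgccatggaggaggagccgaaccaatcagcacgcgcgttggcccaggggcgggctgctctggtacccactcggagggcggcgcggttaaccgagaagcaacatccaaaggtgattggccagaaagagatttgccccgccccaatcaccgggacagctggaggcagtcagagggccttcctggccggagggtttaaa

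Across the array, genes with the element were spread over both directions. Of 131 compared genes with a CARE match, 61 were lower in late diabetes and 13 were at least 1.5-fold lower, 3 of these being members, while 17 were at least 1.5-fold higher. Their median difference was 0.03. The 4 members among them were all lower, from -2.89 to -0.54. Without the members, 10 of 127 genes (7.87%) were at least 1.5-fold lower and the median was 0.04. Of all 6926 compared genes with a promoter, 436 (6.30%) were 1.5-fold lower and 828 were 1.5-fold higher. Atf5 (-1.17) and Phgdh (-0.96) were lower than Chac1 (-0.82) and held no match within their windows, which does not speak to sequence outside them.

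The chaperones and foldases of the ER differed little between the arrays. Hspa5, the Hsp70 chaperone BiP that also holds the stress sensors inactive, had intensities of 9619 and 10191 and a difference of 0.08. Hsp90b1, the ER form of Hsp90, was at 6521 and 7379 (0.18). Calr and Canx, the lectin chaperones calreticulin and calnexin that hold glycoproteins while they fold, differed by 0.03 and -0.07. The disulfide isomerases Pdia3, Pdia4 and Pdia6 differed by -0.08, 0.00 and -0.13. In 10 of the 14 chaperones and foldases the difference was smaller than the SD between probe sets, as it was in 47.6% of all compared genes and in 2 of the 14 Atf4-branch genes.

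The other 4 were Dnajb11, Dnajb9, Creld2 and Dnajc3. Dnajb11, a co-chaperone of BiP, was the highest at 2468 and 3233 in intensity (0.39), and Dnajb9, an IRE1-induced co-chaperone, was at 865 and 1066 (0.30). Creld2, a secreted ER stress protein, differed by 0.23. Dnajc3, a BiP co-chaperone also known as an inhibitor of PERK, went the other way, at 1964 and 1549 (-0.34). The remaining members were Hyou1, the large ER chaperone of the Hsp70 superfamily (0.17), Sdf2l1, a partner of BiP and Dnajb11 (0.11), and the secreted survival factor Manf (-0.03).

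Some chaperone promoters held a different element, and the matches are given for comparison with those of the Atf4 branch. ATF6 with the factor NF-Y binds the ER stress element ERSE, searched as CCAAT, 9 bases of any kind and CCACG. A variant called ERSE-II (ATTGG, 1 base of any kind and CCACG) serves the same response, and spliced Xbp1 binds the UPRE (TGACGTGG). All were searched on both strands. ERSE is rare, with 21 of 27457 rat genes (0.0765%) holding it on either strand. Members made up 7 of those 21 genes. They were 6 of 11 chaperones or foldases (Calr, Canx, Creld2, Dnajc3, Hsp90b1 and Hspa5) and Xbp1. ERSE is an element of the response these members were listed for, so its share among them is not independent support. Pdia4, Dnajb9 and Sdf2l1 held no match to any of the motifs searched. None of the 15 Atf4-branch promoters held ERSE, ERSE-II or the UPRE. With shares over all genes of 0.0765%, 0.0619% and 0.681%, a count of 0 of 15 does not set the branch apart. In the orientation of the motif, again with the match in capitals and 5 bases on each side, the ERSE matches read as follows.
Hspa5: gttcaCCAATCGGAGGCCTCCACGacggg
Hsp90b1, first: caaacCCAATCGAAAGGAGCCACGcttcg
Hsp90b1, second: acccaCCAATCGTGCCTCACCACGcactc
Calr: ctgggCCAATCAGGGTCGACCACGcgttg
Canx: cttgtCCAATCATCACGCTCCACGaagaa
Creld2: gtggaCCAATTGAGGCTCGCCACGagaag
Dnajc3: caaagCCAATCAGCGCCAACCACGaccca
Xbp1: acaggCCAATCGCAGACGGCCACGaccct

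ERSE-II was found in 17 rat genes (0.0619%), of which 3 were members: Dnajb11, Herpud1 and Hyou1, the last with 2 matches. The UPRE was found in 0.681% of genes and in 1 member, Hyou1, where it overlaps an ERSE-II match. Those ERSE-II matches read as follows.
Dnajb11: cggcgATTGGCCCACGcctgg
Herpud1: cgctgATTGGGCCACGttggg
Hyou1, first: tgcggATTGGCCCACGtcacg
Hyou1, second: tccccATTGGGCCACGtagaa

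The 13 compared genes with ERSE, of which 7 are the members above, lay between -0.40 and 0.35, with a median of 0.06. Within 1.5-fold lay 81.4% of all compared genes, so this range is not read as a property of the element. A promoter with ERSE and one with ERSE-II are printed whole, chosen after the values were seen. That of Hspa5 (chr3:38452766-38453065, plus strand) holds ERSE at positions -43 to -25 from the gene start. That of Herpud1 (chr19:10614658-10614957, minus strand) is the single member promoter with both CARE and an ER stress element, with CARE at -184 to -177 and ERSE-II at -124 to -114.
Hspa5: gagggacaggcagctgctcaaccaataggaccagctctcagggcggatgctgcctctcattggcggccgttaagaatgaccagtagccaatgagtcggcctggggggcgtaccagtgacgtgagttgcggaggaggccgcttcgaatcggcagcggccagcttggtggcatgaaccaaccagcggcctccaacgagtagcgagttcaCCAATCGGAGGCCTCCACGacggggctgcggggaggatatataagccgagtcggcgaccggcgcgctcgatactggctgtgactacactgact
Herpud1: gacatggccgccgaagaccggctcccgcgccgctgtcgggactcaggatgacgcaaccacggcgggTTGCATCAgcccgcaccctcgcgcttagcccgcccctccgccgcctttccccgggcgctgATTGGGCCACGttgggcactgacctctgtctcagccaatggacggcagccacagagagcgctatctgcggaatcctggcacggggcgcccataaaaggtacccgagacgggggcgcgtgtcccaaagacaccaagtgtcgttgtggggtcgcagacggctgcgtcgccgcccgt

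**Figure D3:**
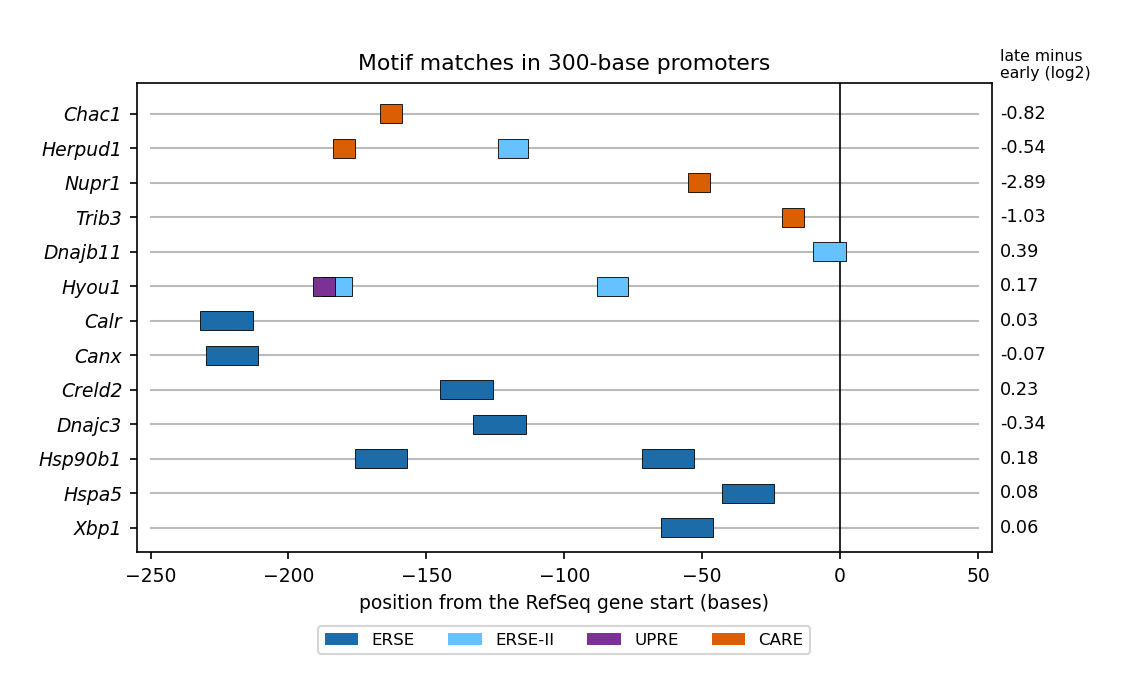
Positions of the motif matches in the 300-base RefSeq promoters of the 13 members that hold any, from 250 bases before the gene start (0) to 50 after it, coloured by motif, with the late minus early difference (log2) of each gene at the right. The 4 genes with CARE have differences from -2.89 to -0.54, and the 7 with ERSE lie between -0.34 and 0.23; a match is a description of the letters and not evidence of binding.

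Genes of ER-associated degradation went both ways within 1.5-fold, with a median of -0.01 and a mean of 0.01 over 5 members. Herpud1, a membrane protein that organises the degradation complex and that both ATF4 and the ATF6 and Xbp1 branches can induce, had intensities of 1890 and 1296. At 1.46-fold lower (-0.54) it was the lowest member outside the Atf4 branch, with 7.08% of compared genes below it. Edem1 and Edem2, which mark misfolded glycoproteins by trimming their mannose, were higher by 0.25 and 0.41. Sel1l, the scaffold of the ubiquitin ligase complex, and Derl1, a channel component, differed by -0.01 and -0.04.

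The stress sensors did not share a direction. Ern1, which encodes IRE1, had intensities of 614 and 1107 and was 1.80-fold higher in the late array (0.85), with 92.5% of compared genes below it. Eif2ak3, which encodes PERK, was at 1471 and 1239 (-0.25), and Atf6 was at 2193 and 1790 (-0.29). Eif2ak4, which encodes GCN2, was at 531 and 565 (0.09). The median of the 4 was -0.08 and their mean, pulled up by Ern1, was 0.10. Array values give the mRNA of these sensors and not their activation, which takes place on the protein.

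**Figure D4:**
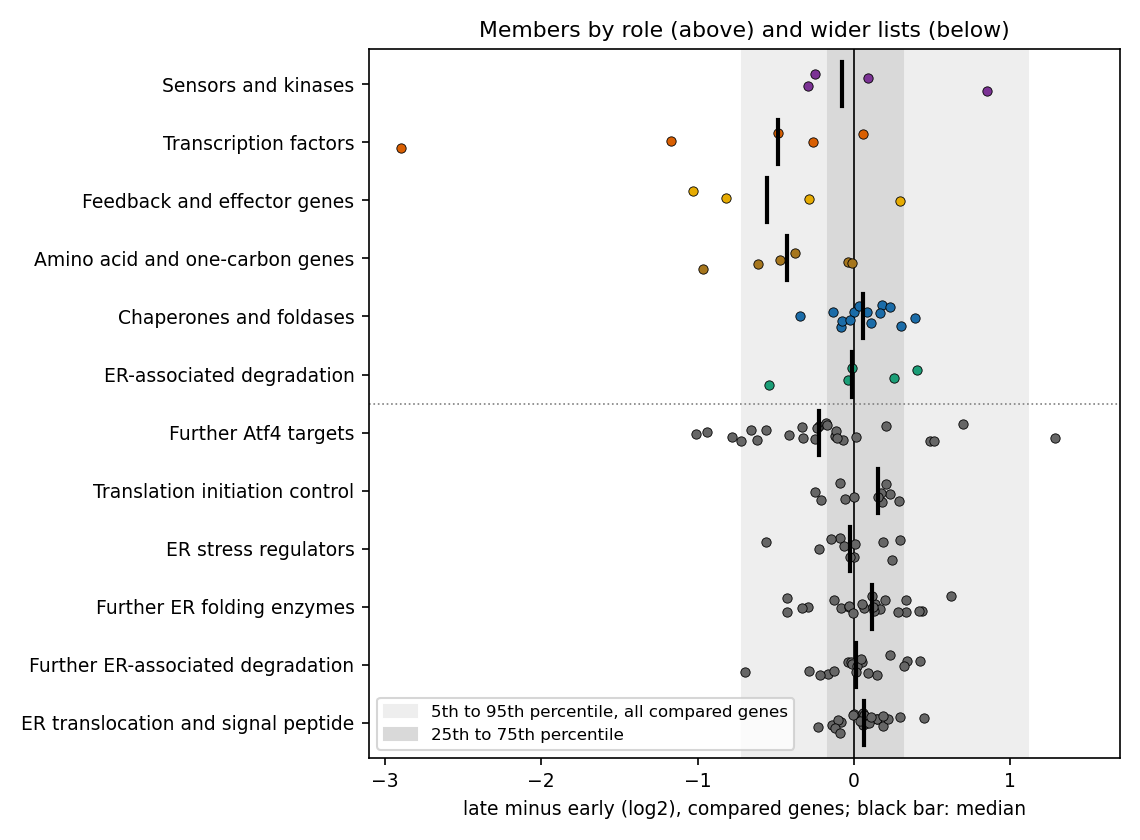
Late minus early difference (log2) of each compared member by role (coloured, upper rows) and of the compared genes of 6 wider lists (grey, lower rows), with a black bar at each median and shaded bands for the central part of all compared genes (5th to 95th and 25th to 75th percentile). The medians of transcription factors (-0.48), feedback genes (-0.55) and amino acid genes (-0.43) lie left of the inner band, and those of chaperones (0.06) and of the ER lists lie within it.

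Wider lists from the same pathway, which leave out the 40 genes above, held 118 measured genes, of which 110 were compared. Like the members, these lists were chosen with earlier results of these data known. Further Atf4 targets had 25 compared genes, 19 lower and 6 higher in late diabetes, with a median of -0.22. At 1.5-fold 6 of them were lower (24.0%, beside 6.48% of all compared genes) and 2 higher. The lowest was Pycr1, which makes proline, at intensities of 1047 and 520 and 2.01-fold lower (-1.01). Aldh1l2, a mitochondrial folate enzyme, was at 954 and 496 (-0.94). Aldh18a1, the enzyme that starts proline synthesis from glutamate, was 1.58-fold lower (-0.66) and was chosen for mention after its value was seen. Pck2 (-0.78) and Ddit4 (-0.72), also named after their values were seen, lay between Aldh1l2 and Aldh18a1. Against this direction, Slc7a11, the cystine importer, had intensities of 1100 and 2679 and was 2.44-fold higher (1.28). Slc7a11 is also a textbook target of the antioxidant factor Nrf2, and whether its value has to do with either factor was not tested. Mthfd1l, a mitochondrial enzyme that makes formate, was at 450 and 730 (0.70). Gdf15 (0.51) and Cebpb (0.49), also named after their values were seen, were higher too, within 1.5-fold.

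The lists of general ER function lay near the median of all compared genes. Further ER folding enzymes had a median of 0.11 over 23 genes, with 0 lower by 1.5-fold and 1 higher. That gene was Ero1l, the oxidase that recharges disulfide isomerases, at intensities of 1568 and 2407 (0.62). Further degradation genes had a median of 0.02 over 18 genes, with 1 lower by 1.5-fold, Herpud2, a relative of Herpud1, at 3119 and 1928 (-0.69). The 22 genes of translocation into the ER had a median of 0.06, and the difference was smaller than the SD between probe sets in 19 of them, beside 47.6% of all compared genes. Neither the 11 genes listed under translation initiation control (median 0.16) nor the 11 further ER stress regulators (median -0.03) held a gene 1.5-fold apart. Of all compared genes, 81.4% lay within 1.5-fold too.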

How the data were processed

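The authors deposited normalized intensity values on a linear scale, 1 per probe set and array, once with and once without gene symbols. Both tables held the same values for all 29214 probe sets. Per the series' design text, the arrays were of the type Affymetrix Rat Gene 1.0 ST; not given in the sources used here were the background correction, the summary, the normalization and the software.

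These linear values were turned into log2 values without a pseudocount, a step the design had assumed done. Probe sets naming 1 gene (20164) were averaged per gene. A gene was compared when the larger value reached the median of all gene values (8.03), and the 95th percentile of 1199 olfactory receptor genes (6.81) served as background. No test was possible with 1 array per group; array number limits the precision. All 39 member symbols are current in RefSeq. Members, lists and motifs were chosen with earlier results of these data known. Any member could be named, and of each wider list the 2 highest and 2 lowest compared genes if at least 1.5-fold apart; exceptions are marked. The promoters past 2-fold were to be printed, and those of Chac1, Hspa5 and Herpud1 were added after the values were seen. Alternatives were other filters, thresholds (1.5-fold and 3-fold), scalings, probe set choice and a pseudocount. The calculations were tested on simulated data. Python 3.11.15, numpy 2.4.6, pandas 2.3.3, statsmodels 0.14.6 and matplotlib 3.10.9 were used.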

Additional observations from a re-analysis of the deposited data

How the results depend on the processing

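No paired analysis was possible because each group has 1 array. A value counts as moved when it shifted by more than the SD between probe sets (0.22), and a count when it changed by over 1.5 times. All 225 differences of the 45 named genes under quantile normalization, lowess removal (span 0.3), the brightest probe set, a pseudocount of 16 and median centring shifted by less than that SD. Part of this was fixed in advance. The brightest probe set can change only Mthfd2, the sole named gene with 2 probe sets, and centring moves each gene by 0.10, less than the SD. A pseudocount of 16 is small beside the intensities of the named genes and cannot turn a difference around. The branch median minus the chaperone median ran from -0.50 under the 75th percentile filter to -0.56 under lowess removal, and was -0.71 with means and -0.53 without Nupr1. Members at least 2-fold lower were 3 as reported, 4 under quantile normalization, lowess removal or median centring, where Phgdh joined, and 2 with the pseudocount (Trib3 lost) or the 75th percentile filter. With a 1.5-fold threshold there were 6 lower and 1 higher members, and with 3-fold 1 lower. Over all compared genes the counts were 631 lower and 1177 higher at 1.5-fold, 129 and 237 at 3-fold, and 177 and 280 with the 75th percentile filter, against 303 and 569 as reported. These follow from the threshold or from fewer genes. The transcription factor median of -0.48 was -0.83 with the 75th percentile filter, which keeps 4 genes, and the mean was -0.95. Median centring moved every gene by the same 0.10, which by construction changed the sign of the small differences of Eif2ak4, Xbp1, Hspa5, Pdia4 and Calr and left differences between lists as they were. In each of the 5 scalings or probe choices 13 of 14 Atf4-branch genes were lower, a count that centring, the pseudocount and the probe set choice could not change.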
